A study of Homo sapiens with 6 samples.

Results

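CDK inhibitors and growth arrest genes are the genes that stop or slow the cell cycle and, for some of them, start cell death. The 10 genes described here, given as a list of symbols, are the CDK inhibitors CDKN1A, CDKN1B, CDKN1C and CDKN2C, the antiproliferative factors BTG1 and BTG2, the stress genes GADD45A and GADD45B, the kinase PLK3 and the BH3-only death gene BBC3. All 10 were found by symbol among the 21519 genes of the co-culture table and all 10 among the 9450 genes of the METTL1 knockdown table, which lists genes with an m7G peak. The cells are DLD1, a human colorectal cancer line. In the co-culture table, the library S-CAFs-w13 is DLD1 of genotype WT grown with the fibroblasts its label calls S-CAFs; the series title speaks of senescent CAFs (cancer-associated fibroblasts). DLD1-W13CM is the other WT library and was taken, by elimination, as DLD1 with CAFs, since its label does not name the partner cells. In the knockdown table, DLD1 with a stable METTL1 knockdown by the construct sh2 (knockdown input) stands beside DLD1 with the control construct sh-NT (control input), each with an m7G immunoprecipitate (IP). All cells were kept in DMEM with serum. With 1 library in each of the 6 groups, differences could not be set against a spread between replicates and no test between groups was run.

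CDKN1A (p21), CDKN1B (p27) and CDKN1C (p57) form the CIP/KIP family, which binds cyclin-CDK complexes, whereas CDKN2C (p18) belongs to the INK4 family, which binds CDK4 and CDK6 alone. Both families keep the RB proteins active, and RB proteins hold back the E2F factors that drive S phase genes. Several of the 10 genes, CDKN1A, BTG2, GADD45A, PLK3 and BBC3 among them, are known to respond to DNA damage and other stress. The question asked of the data was which of these genes stood higher in each comparison.

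The promoters of 4 of the genes that were at least 2-fold higher in S-CAFs-w13 are shown so that the proximal sequence of genes that stood higher together can be compared. Each run holds the 180 bases before the gene's outermost RefSeq start (GRCh38.p14), 5′ to 3′ on the coding strand; they are CDKN1B at chr12:12717188-12717367, GADD45B at chr19:2475947-2476126, PLK3 at chr1:44800197-44800376 and BTG2 at chr1:203305339-203305518, all on the plus strand. Capitals mark a CCAAT box, a TATA box, an E-box or an ATF4-C/EBP composite site, on either strand, and no marked matches overlap.
CDKN1B: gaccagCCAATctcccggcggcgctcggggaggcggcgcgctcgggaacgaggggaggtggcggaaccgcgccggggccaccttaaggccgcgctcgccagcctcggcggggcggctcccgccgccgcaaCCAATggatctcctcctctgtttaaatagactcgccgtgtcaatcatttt
GADD45B: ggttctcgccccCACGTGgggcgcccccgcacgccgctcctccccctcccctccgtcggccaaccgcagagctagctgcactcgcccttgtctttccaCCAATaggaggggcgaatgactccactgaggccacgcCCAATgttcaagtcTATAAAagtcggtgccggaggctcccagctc
PLK3: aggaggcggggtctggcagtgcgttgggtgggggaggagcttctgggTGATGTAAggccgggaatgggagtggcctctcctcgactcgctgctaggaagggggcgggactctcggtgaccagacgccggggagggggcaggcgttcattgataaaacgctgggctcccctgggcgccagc
BTG2: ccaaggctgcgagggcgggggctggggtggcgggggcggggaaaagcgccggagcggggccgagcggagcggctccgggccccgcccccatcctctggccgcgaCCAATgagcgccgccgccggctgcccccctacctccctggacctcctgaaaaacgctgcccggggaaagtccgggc

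CDKN1B held CCAAT boxes at 174 and 50 bases before the start and GADD45B at 82 and 45 bases, while BTG2 held a CCAAT box at 76 bases. GADD45B also held a TATA box at 31 bases and an E-box at 168 bases. PLK3 held the composite site at 133 bases and no CCAAT box. RefSeq windows of 300 bases (250 before and 50 after a start) were at hand for 8 of the 10 genes, CDKN2C with 3 of the 10 windows, and not for CDKN1C and GADD45A. Both strands were searched. A gene counted if any of its windows held a match, while the shares are of single windows. The gene counts and the shares are thus in unlike units. A CCAAT box occurred in windows of 6 of the 8 genes and in 34.6% of 34943 windows of all genes. The GC box (GGGCGG), not in capitals above, occurred in 6 of the 8 and in 44.9% of all windows. The TATA box (searched as TATAAA) occurred in BTG1 and GADD45B and in 11.6% of all windows. The E-box (searched as CACGTG) occurred in BBC3, CDKN2C and GADD45B and in 7.23% of all windows. The composite site (TGATGNAA) occurred in PLK3 alone and in 3.62% of all windows. An AP-1 site (TGANTCA) occurred in BBC3 alone (7.72%) and a FOXO site (GTAAACA) in BTG1 alone (3.42%). The cAMP response element (TGACGTCA, 1.84% of all windows) and the NF-kB site (1.61%) had no match in these 8 genes' windows, which says only that these letters are not there.

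Levels are in FPKM, the fragments of a gene per length and per sequencing depth. The FPKM values stepped in whole reads, and the effective library sizes so recovered were 6337930 and 6215550 for DLD1-W13CM and S-CAFs-w13, and 10454200 and 11625200 for the control and knockdown inputs. Intervals given with a fold or a level are 95% intervals from the smallest read numbers the values allow, and they cover counting error only. METTL1, the m7G methyltransferase that the knockdown targets, stood at 5.8 FPKM in control input and 3.28 FPKM in knockdown input, 1.77-fold lower (1.37 to 2.29). It also stood 2.71-fold lower (1.75 to 4.29) in S-CAFs-w13 than in DLD1-W13CM. Of 8 colon epithelial markers, 4 stood higher and 4 lower in S-CAFs-w13 than in DLD1-W13CM. EPCAM (154 and 149 FPKM in DLD1-W13CM and S-CAFs-w13) and KRT8 (754 and 1051 FPKM) were high in both. CDX2 stood at 19.0 and 6.83 FPKM, 2.78-fold lower in S-CAFs-w13. VIL1 (2.1 and 1.12 FPKM) and CEACAM5 (0.848 and 4.13 FPKM) were low. Of 15 fibroblast markers 7 were in the co-culture table, with summed levels of 5.67 and 5.33 FPKM in DLD1-W13CM and S-CAFs-w13, although 5 of the 7 stood higher and 2 lower in S-CAFs-w13 (values are given after the co-culture results); leukocyte markers (2 of 5 in the table) summed to 2.24 and 2.17 FPKM and endothelial markers (3 of 4) to 0.158 and 0.406 FPKM.

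In S-CAFs-w13, 9 of the 10 arrest genes stood above their level in DLD1-W13CM and CDKN2C stood below it. At least 2-fold higher were 6 of the 10: CDKN1C, GADD45B, PLK3, BTG2, CDKN1B and BBC3. CDKN1A, BTG1 and GADD45A were higher by less than 2-fold. A difference of 2-fold was counted on log2((FPKM + 1)/(FPKM + 1)), which understates low genes; a fold printed with an interval is the ratio of the FPKM values themselves. Without any minimum, 6 of the 10 were higher and 1 was lower by 2-fold, beside 6.81% and 5.98% of all 21519 genes, and the median log2 ratio was 1.34 over the 10 and 0.01 over all. Of the 14739 genes with a mean FPKM of 1 or more, 9.08% stood 2-fold or more higher and 7.92% stood 2-fold or more lower. With the same minimum, 52.3% of genes had a log2 ratio above 0. That minimum depends on the change itself: CDKN1C passed it through S-CAFs-w13 and CDKN2C missed it there, which left 9 of the 10. With the minimum set on DLD1-W13CM alone, chosen after seeing the data, CDKN2C counted and CDKN1C did not, and 5 of 9 were higher and 1 lower by 2-fold, beside 6.25% and 8.94% of 14401 genes.

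The CIP/KIP inhibitors were higher in S-CAFs-w13 by very different folds. CDKN1C had 0.549 FPKM in DLD1-W13CM against 14.7 in S-CAFs-w13, 26.7-fold higher (13.8 to 59.2), from at least 9 and 236 reads. It went from the lowest of the 10 genes to the fifth highest. By log2 ratio it ranked 33 from the top of the 14739 genes with a mean FPKM of 1 or more. It passed that minimum only through S-CAFs-w13, so the rank is not independent of its change. CDKN1B was the highest of the 10 in both libraries, at 12.97 and 34.9 FPKM, 2.69-fold higher (2.31 to 3.15). CDKN1A stood at 11.5 and 20.4 FPKM, 1.77-fold higher (1.5 to 2.1), an interval that reaches past 2-fold. CDKN1A thus had the smallest fold of the family. In FPKM, the gap between the libraries was widest for CDKN1B.

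CDKN2C, the INK4 inhibitor, went the other way. It had 1.24 FPKM in DLD1-W13CM against 0.097 in S-CAFs-w13, 12.7-fold lower, from at least 26 and 2 reads. With so few reads its interval ran from 3.19 to 111-fold. The authors' deposited table gave it a log2 fold change of -3.82. Of its relatives, CDKN2B stood at 1.21 and 1.27 FPKM (0.622 to 1.78 as a ratio) and CDKN2D at 2.94 and 3.0 FPKM (0.582 to 1.79). Both intervals include 1, and a change of up to their ends is compatible with the counts. CDKN2A was near 0 in both libraries (0.146 and 0.0372 FPKM).

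**Figure D1:**
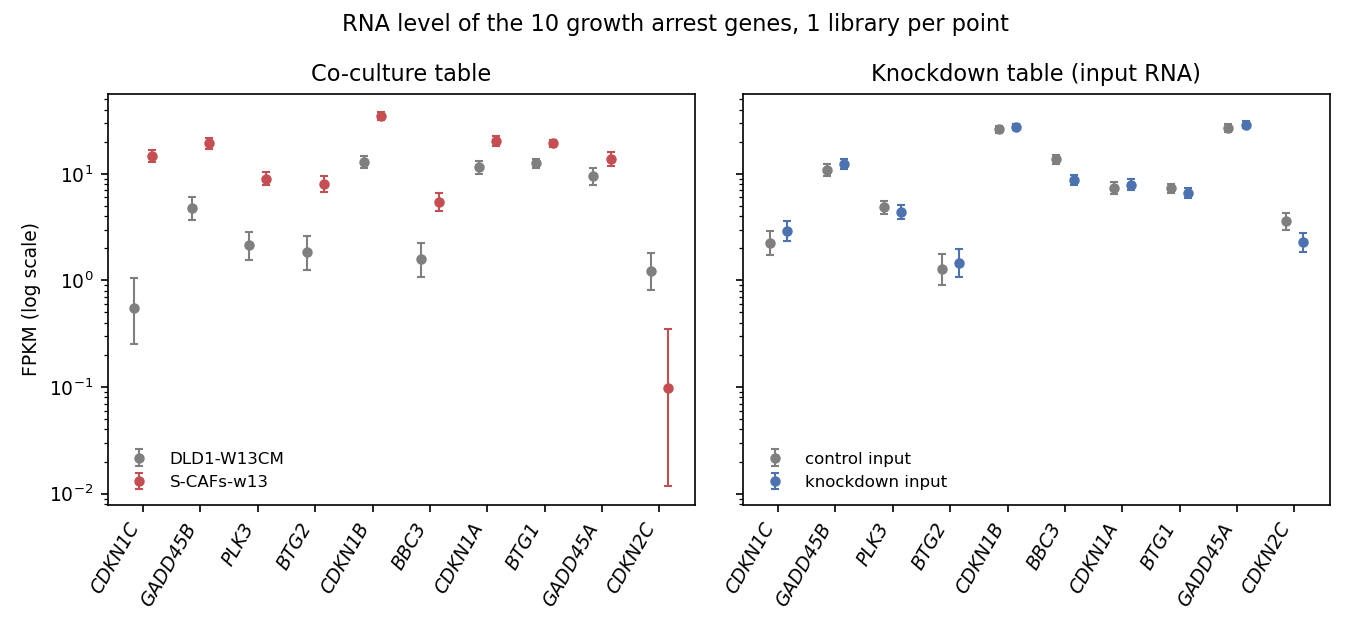
FPKM (log axis) of the 10 arrest genes in the 2 libraries of the co-culture table (left) and of the knockdown table (right); each point is 1 library and bars are 95% counting intervals. In S-CAFs-w13 every gene but CDKN2C lies above DLD1-W13CM, CDKN1C from 0.549 to 14.7 FPKM, while the points of the knockdown table lie close together.

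The BTG and GADD45 pairs each held a gene with a large difference and a gene with a small one. BTG2, a cofactor of mRNA deadenylation and an early stress gene, stood at 1.83 and 7.99 FPKM, 4.37-fold higher in S-CAFs-w13 (2.95 to 6.63). Its paralog BTG1 stood at 12.5 and 19.3 FPKM, 1.53-fold higher (1.35 to 1.75). GADD45B, which binds the stress kinase kinase MTK1 and is known as an NF-kB and TGF-beta target, stood at 4.8 and 19.3 FPKM, 4.02-fold higher (3.05 to 5.36). Its paralog GADD45A, a DNA damage gene, stood at 9.46 and 13.8 FPKM, 1.46-fold higher (1.16 to 1.86). In both pairs the gene that was lower in DLD1-W13CM had the larger fold, and the intervals of the folds do not overlap within either pair. In the S-CAFs-w13 library GADD45B and BTG1 lay side by side, with overlapping intervals of their levels.

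PLK3 and BBC3, both low in DLD1-W13CM, were also higher. PLK3, a stress-activated polo-like kinase, stood at 2.13 and 9.02 FPKM, 4.23-fold higher in S-CAFs-w13 (3.06 to 5.95). BBC3 (PUMA), which binds and blocks the BCL2 survival proteins, stood at 1.59 and 5.46 FPKM, 3.44-fold higher (2.3 to 5.28). The other polo-like kinases were not higher with PLK3: PLK1, the mitotic kinase, stood at 23.04 and 9.67 FPKM, 2.38-fold lower (2.07 to 2.74), and PLK2 at 22.7 and 17.1 FPKM. DYNLT4, a protein-coding gene, overlaps PLK3 in RefSeq, DINOL overlaps CDKN1A and LINC01619 overlaps BTG1, and 2 miRNA genes overlap BBC3. No source used here says whether counting used strand, so reads of such neighbours cannot be told apart.

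**Figure D2:**
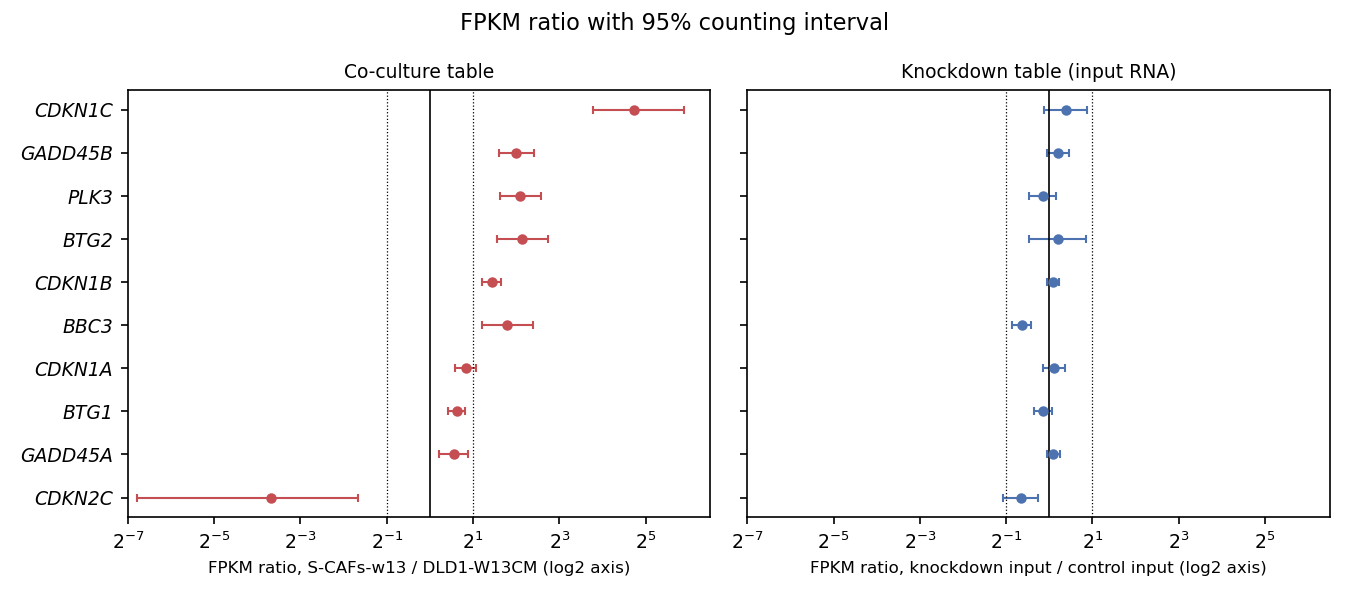
FPKM ratio (log2 axis) of each arrest gene in S-CAFs-w13 over DLD1-W13CM (left) and in knockdown over control input (right), 1 library per group, with 95% counting intervals; dotted lines mark 2-fold. On the left 6 intervals lie wholly above 2-fold, and on the right only the intervals of BBC3 and CDKN2C leave 1, both below it.

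The order of the levels also differed between the co-culture libraries. In DLD1-W13CM, CDKN1B, BTG1, CDKN1A and GADD45A led, each overlapping the next in counting interval, then came GADD45B, and PLK3, BTG2, BBC3, CDKN2C and CDKN1C followed, again each overlapping the next. In S-CAFs-w13, CDKN1B stood apart at the top, CDKN1A, GADD45B and BTG1 overlapped one another, CDKN1C overlapped GADD45A, and PLK3 overlapped BTG2. BBC3 and CDKN2C came last, each apart from its neighbour.

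The counting interval lay wholly above 2-fold for the same 6 genes, and wholly below it for CDKN2C. On the authors' own log2 fold changes the median of all genes shifted by -0.14, and after leaving out mitochondrial genes and rescaling it shifted by -0.17. Higher genes made up 53.4% of all 2-fold genes, and 41.3% and 36.2% on these scales in turn. As a share of all genes those 2-fold higher were 9.08%, 11.4% and 6.27%. On each scale 9 of the 10 arrest genes were above 0, CDKN2C was below 0 and 6 were 2-fold or more higher. Library DLD1-W13CM may differ from S-CAFs-w13 in more than the partner fibroblast, and these cannot be told apart. In bulk RNA, more cells with a transcript and more transcript per cell cannot be told apart either. None of the 7 listed fibroblast markers was at 0, and 5 stood higher in S-CAFs-w13, each under 1 FPKM. PDGFRB stood at 0.0221 and 0.564 FPKM, 25.5-fold higher (4.17 to 1047). COL6A1 stood at 0.0295 and 0.331 FPKM, 11.2-fold higher (1.63 to 483). COL1A1 had 0.0482 and 0.229 FPKM, 4.76-fold higher (1.33 to 25.8). VIM (0.489 and 0.78 FPKM) and SPARC (0.163 and 0.2 FPKM) had intervals that include 1. FN1 (3.12 and 1.71 FPKM) and ACTA2 (1.8 and 1.51 FPKM), which make up most of the summed level, stood lower. The part of fibroblast RNA in the results was not tested.

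**Figure D3:**
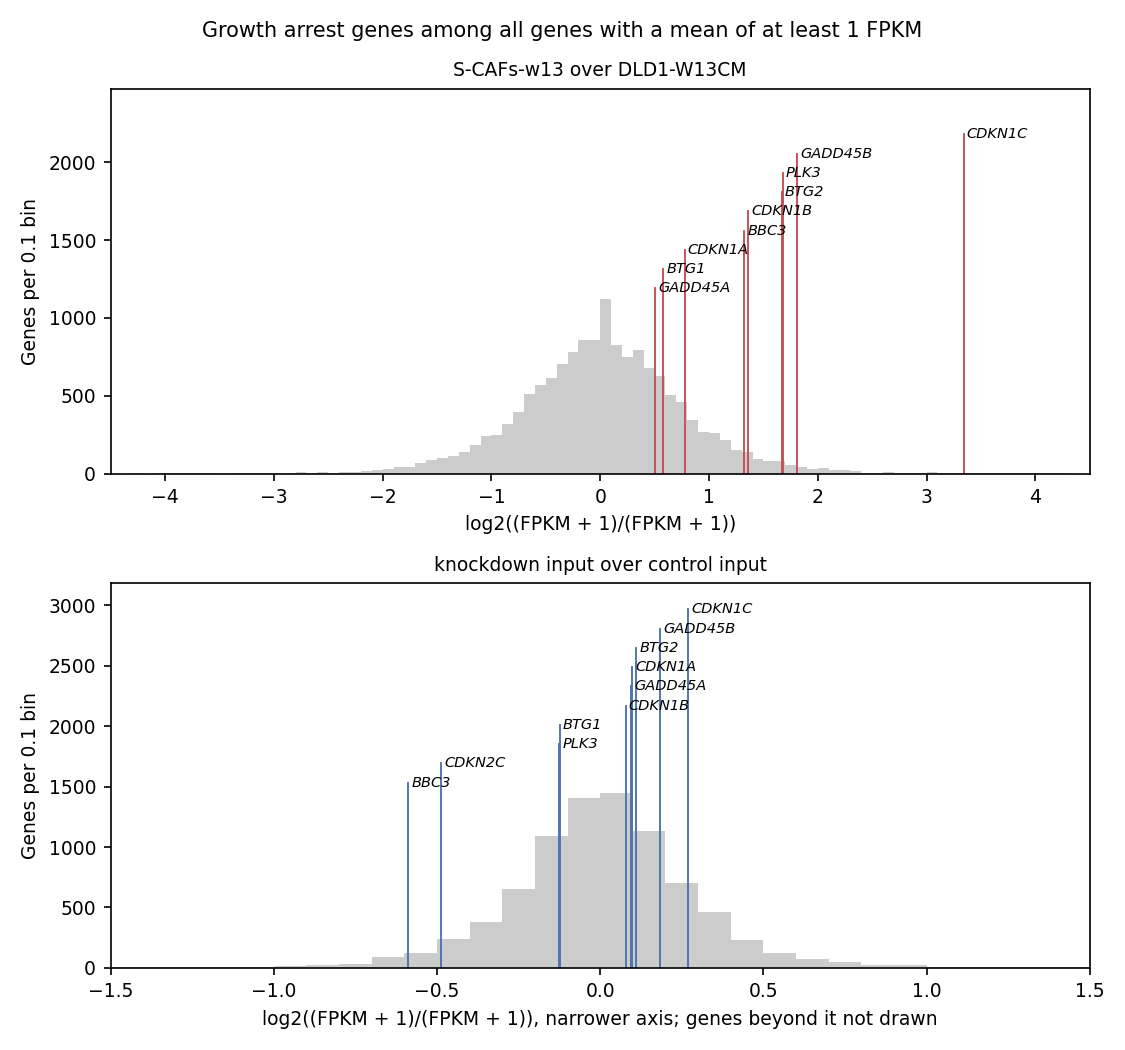
Histograms (genes per bin) of log2((FPKM + 1)/(FPKM + 1)) over the 14739 genes of the co-culture table (top) and the 8400 of the knockdown table (bottom) whose mean FPKM was 1 or more; vertical lines mark the arrest genes and their height has no meaning. The 9 lines of the top panel (CDKN2C, which was lower, missed the minimum) lie right of 0, while the 10 lines of the bottom panel lie on both sides of it, with BBC3 and CDKN2C farthest left.

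The cyclin, CDK and RB-E2F list was lower for the most part: 7 of 26 measured genes stood 2-fold or more lower and 2 higher, beside 7.92% and 9.08% of all genes, with a median log2 ratio of -0.61. The lower genes were CDC25A, E2F1, E2F2, E2F8, CCNE2, PCNA and RBL1. CDC25A, the phosphatase that activates CDK2, stood at 19.9 and 2.7 FPKM, 7.38-fold lower (5.73 to 9.63). E2F1 stood at 12.5 and 2.31 FPKM, 5.39-fold lower (3.77 to 7.92). The 2 higher genes were CDC25B (2.18-fold) and RBL2. RBL2 (p130), the RB family protein of resting cells, stood at 5.99 and 17.4 FPKM, 2.9-fold higher (2.53 to 3.34), while its relative RBL1 (p107) was 3.83-fold lower (2.98 to 4.99) and RB1 stood at 14.1 and 13.07 FPKM. CCND1 stood at 171 and 152 FPKM.

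Among 19 measured regulators of p27 and p57 and FOXO factors, 2 stood 2-fold or more higher and 1 lower, shares near the 9.08% and 7.92% of all genes, with a median log2 ratio of 0.05. The higher genes were FOXO3 and FOXO4, transcription factors known to activate CDKN1B. FOXO3 stood at 7.95 and 26.2 FPKM, 3.3-fold higher (2.94 to 3.7), FOXO4 at 1.01 and 3.27 FPKM, and FOXO1 at 5.47 and 10.53 FPKM. FOXM1, which drives mitotic genes, was 2.68-fold lower (2.39 to 3.01). SKP2, the ubiquitin ligase subunit that removes p27 protein, stood at 12.2 and 8.13 FPKM, and MYC at 37.2 and 37.2 FPKM. A further list held other genes with CDKN, BTG, TOB, GADD45 or PLK symbols, not all of them paralogs of the arrest genes. Of its 10 measured genes, 0 stood 2-fold or more higher and 2 lower (PLK1, and CDKN3 at 18.1 and 6.66 FPKM). These lists were drawn up with results of the data known, and their counts describe the libraries only.

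**Figure D4:**
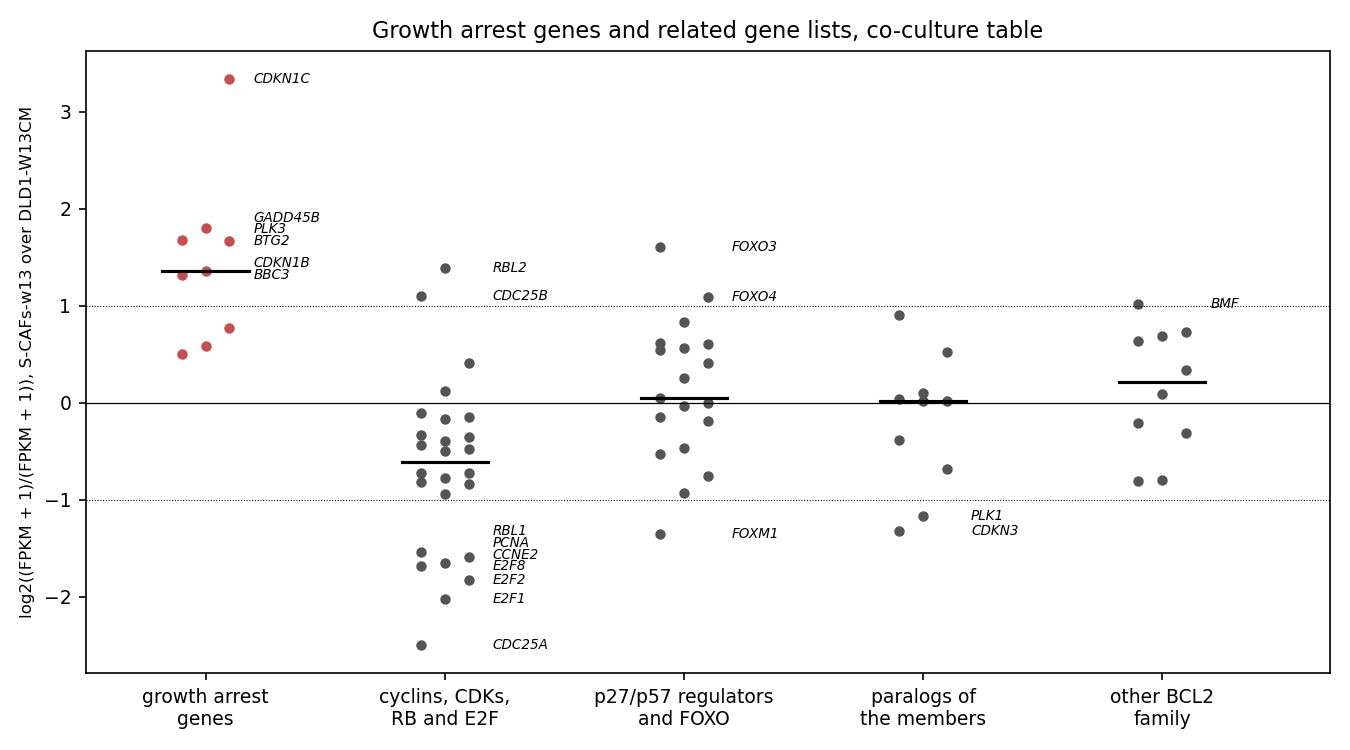
log2((FPKM + 1)/(FPKM + 1)) in S-CAFs-w13 over DLD1-W13CM for the 9 measured arrest genes (red) and 4 related lists (grey), with genes past 2-fold (dotted lines) named and black bars at the medians. The 9 arrest genes drawn (CDKN2C, with a mean under 1 FPKM, is not) have a median of 1.36 and the cyclin, CDK, RB and E2F list -0.61.

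The knockdown comparison asks whether less METTL1 goes with other levels of the same genes. None of the 10 was at least 2-fold different: 0 of 10 were higher, beside 0.429% of 8400 genes, and 0 of 10 lower, beside 0.56%. The median log2 ratio was 0.09 over the 10 and 0.01 over all genes, with 6 of the 10 above 0, beside 51.2% of the 8400 genes. BBC3 and CDKN2C were the 2 genes whose counting interval left 1, and both were lower. BBC3 stood at 13.7 FPKM in control input and 8.76 FPKM in knockdown input, 1.56-fold lower (1.35 to 1.81). CDKN2C stood at 3.6 and 2.28 FPKM, 1.58-fold lower (1.19 to 2.1). The authors' deposited table gave BBC3 a log2 fold change of -0.66 with an adjusted p of 9.2e-09 and CDKN2C -0.67 with an adjusted p of 0.00382; with 1 library a line these values cannot cover variation between cultures. With a single construct, what sh2 does beyond lowering METTL1 cannot be told apart.

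Of the 6 genes at least 2-fold higher in S-CAFs-w13, BBC3 was thus lower in the knockdown input; the other 5, and CDKN1A, BTG1 and GADD45A, had intervals that include 1. CDKN1C had 2.26 FPKM in control input and 2.93 in knockdown input (0.925 to 1.83 as a ratio). CDKN1B stood at 26.1 and 27.6 FPKM (0.959 to 1.17) and CDKN1A at 7.34 and 7.93 FPKM (0.905 to 1.29). GADD45B stood at 10.8 and 12.4 FPKM (0.967 to 1.36) and GADD45A at 26.9 and 28.7 FPKM (0.956 to 1.2). BTG2, the lowest of the 10 here, stood at 1.28 and 1.47 FPKM (0.727 to 1.81) and BTG1 at 7.29 and 6.61 FPKM (0.783 to 1.05). PLK3 had at least 176 reads in each library, at 4.84 and 4.35 FPKM (0.726 to 1.11). For these 8 genes a difference was not detectable at this depth, and a change of up to the interval's ends is compatible with the counts. GADD45A and CDKN1B led in both lines with overlapping intervals; BBC3 was the third of the 10 in control input and the fourth in knockdown input. The 2 tables were normalised apart from each other, so a level in an input library is not set against a co-culture library. Of the 4 related lists, 0 genes were at least 2-fold different in the knockdown.

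The m7G data list where RNA with 7-methylguanosine (m7G), a base found at caps and inside RNAs, was pulled down, as 1 peak per gene. Values of the peaks are those of the authors' deposited table, and the change was taken as knockdown relative to control. The deposited header names no numerator, and the other reading would turn all signs. Of the 10 peaks 6 lay in the 5′ UTR, 60% beside 49.5% of all 9450 peaks, 2 in coding sequence (CDKN1B and GADD45A), 1 at a start codon (PLK3) and 1 in an exon (GADD45B). Coordinates are those of the files, for which the submitters' processing notes name GRCh38.

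Fold enrichment, the peak's own value in the authors' deposited table (which does not name the libraries behind it), ranged from 2.02 to 46.2 over the 10 genes, with a median of 13.7 beside 12.4 over all peaks. BTG1 had the strongest peak (5′ UTR, chr12:92145448-92145897) at 46.2, above 93.3% of 5′ UTR peaks. BBC3 (5′ UTR, in 3 blocks from chr19:47228424-47232766) reached 26.3, GADD45B (exon, chr19:2476122-2476389) 22.3 and PLK3 (start codon, chr1:44800315-44800615) 20.9. BTG2 (5′ UTR, chr1:203305491-203305701) stood at 14.9, the median of its location, and CDKN1C (5′ UTR, chr11:2885376-2885881) at 12.4. CDKN1A (5′ UTR, chr6:36678673-36678912) reached 7.82, above 17.1% of 5′ UTR peaks, and CDKN2C (5′ UTR, chr1:50969102-50969311) 3.31, above 1.97%. The coding sequence peaks were the weakest, with GADD45A (chr1:67685917-67686157) at 2.84 and CDKN1B (chr12:12717927-12718285) at 2.02, beside a median of 9.93 for that location.

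The deposited peaks of GADD45B, BTG2, CDKN1A, BTG1 and PLK3 began 5, 28, 41, 51 and 62 bases before a RefSeq start of the gene, so the first bases of the GADD45B, BTG2 and PLK3 peaks are the last bases of the promoter runs printed above. The CDKN1B peak instead began 559 bases after its start, away from the printed run. CDKN2C, with 3 RefSeq starts, had its peak 396 bases after the nearest.

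In m7G change, the authors' deposited table gave 0 of the 10 peaks an FDR below 0.05, beside 5.25% of all peaks. At an unadjusted p-value under 0.05 there were 2 of 10 (CDKN1B and CDKN1C), a share near the 16.1% of all peaks. CDKN1B had a log2 change of 0.73 (p = 0.00646, FDR 0.105) and CDKN1C of 1.66 (p = 0.0331, FDR 0.283) in the authors' deposited table. PLK3 had the largest value, 2.30, with an FDR of 0.556. BTG2 had 1.09, GADD45B 0.61 and BBC3 0.11, and below 0 lay GADD45A at -0.61, CDKN2C at -0.11, CDKN1A at -0.10 and BTG1 at -0.09, with FDRs from 0.596 to 0.71. In all, 6 of the 10 changes were above 0, beside 50.1% of all peaks, with a median of 0.36 beside 0.004 over all peaks. BBC3 and CDKN2C, the genes with less input RNA in the knockdown, had m7G changes near 0. So did CDKN1A and BTG1, whose intervals for input RNA include 1.

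**Figure D5:**
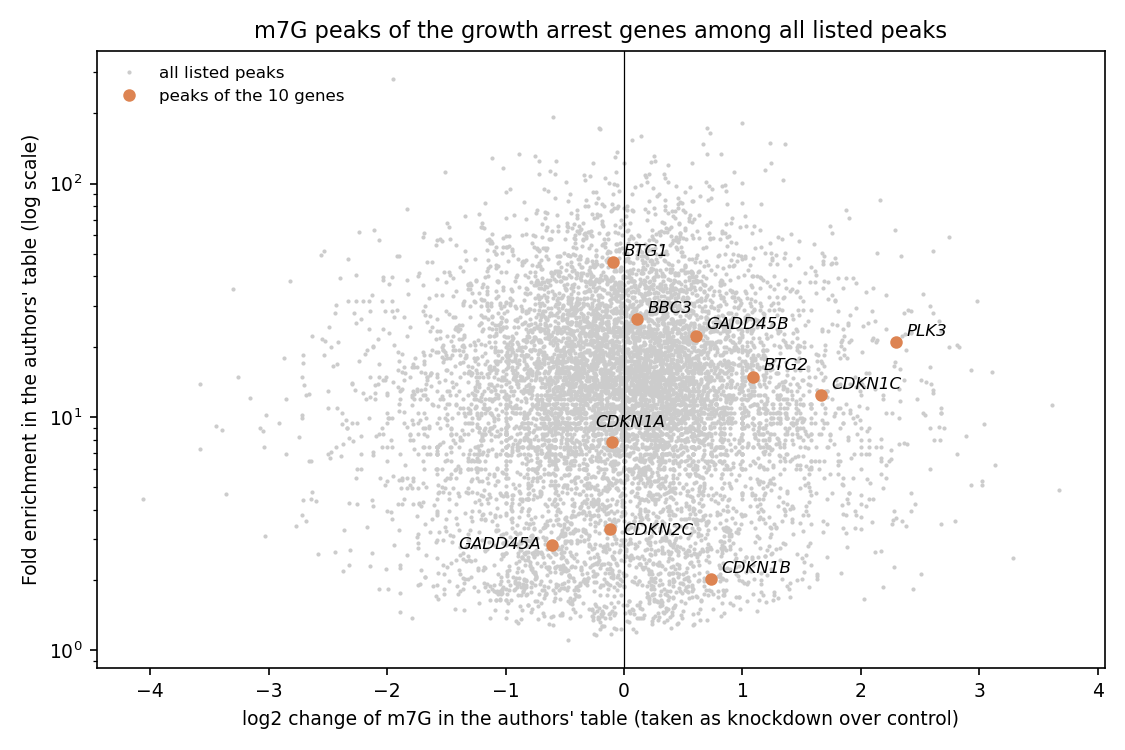
Fold enrichment (log axis) against the log2 change of m7G for all 9450 peaks (grey) and the 10 peaks of the arrest genes (orange), both as deposited by the authors and with the change taken as knockdown over control. BTG1 lies highest at 46.2 with a change near 0, PLK3 farthest right at 2.30, and CDKN1B lowest at 2.02.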

How the data were processed

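RNA-seq was done on 2 DLD1 libraries, S-CAFs-w13 and DLD1-W13CM, the second taken as a co-culture by elimination. The m7G MeRIP-seq, with antibody pull-down beside input, was done on METTL1 knockdown and control DLD1. Each group held 1 library (6 in all). Tools per the submitters' processing notes were HISAT2 2.1.0, cutadapt 2.5, SAMtools 1.10, featureCounts 1.6.3, HOMER 4.10.4 and DESeq2, without roles. The same notes list GRCh38, hg38 and GRCm38. No source used here gives the peak caller. The authors deposited FPKM, which is named in the co-culture table and inferred from the values for the input columns of the knockdown table. Per the file headers, each gene also has a log2 fold change, its p-value and an adjusted p-value. Peaks carry a deposited fold enrichment ratio, a deposited log2 change and deposited log10 values of FDR and p-value.

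Genes were matched by symbol. A fold was counted on log2(FPKM + 1) for genes whose mean FPKM was 1 or more. Whole reads were recovered from the FPKM ratios (relative tolerance 1e-14; 20805 of 20806 and 9348 of 9348 genes) with RefSeq lengths of small RNAs, of which 51.0% of 102 matched, and then gene lengths from the co-culture table, of which 85.8% matched in the knockdown table. The smallest whole reads gave exact 95% intervals (Clopper-Pearson for folds, Poisson for levels, scipy 1.17.1). The recovery was also run on simulated reads. These were drawn with the recovered read means and library sizes, so that run cannot show that the recovered sizes are right. True reads can be whole multiples of these. No test between conditions is possible. The genes named by rule are all members, METTL1, and related genes past 2-fold, with neighbours named after their values were seen. 1 further gene list is not reported here. The members, lists and motifs were chosen with earlier results of these data known.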

Additional observations from a re-analysis of the deposited data

How the results depend on the processing

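The count of 6 arrest genes at least 2-fold higher in S-CAFs-w13 was also 6 with a pseudocount of 0.1 FPKM, with plain FPKM ratios, with centring on the median of all genes, on the authors' log2 fold changes, with rescaling without mitochondrial genes, with no filter, and by the counting interval. It was 4 at a mean of at least 5 FPKM, where BTG2 and BBC3 drop out, and 7 at 1.5-fold. BTG1, 1.53-fold higher in plain FPKM, was 1.495-fold higher on the log2(FPKM + 1) scale and so was not counted. The count of 0 lower, which rests on the mean filter, became 1 with no filter (CDKN2C). With a minimum of 1 FPKM in DLD1-W13CM alone, added after seeing the data, 5 were higher and 1 lower. In the knockdown, the count of 0 lower became 1 at 1.5-fold (BBC3), and 0 higher stayed 0 under each alternative run. CDKN2C, 1.58-fold lower in plain FPKM, was 1.40-fold lower on the log2(FPKM + 1) scale and so was not counted. The m7G count of 0 became 2 at a p-value under 0.05 (CDKN1B and CDKN1C). The other reading of the direction turns only the signs, so it cannot alter this count. Of single log2 ratios, 44 of 50 in the co-culture and 40 of 40 in the knockdown moved by less than their counting error. None changed sign, though another pseudocount or a plain ratio cannot change a sign. The 6 that moved further were of CDKN2C (-1.03, and -3.82 on the authors' log2 fold changes), CDKN1C (3.34, and 4.74 as a plain ratio) and BTG1 (0.58, and 0.37 rescaled). No paired analysis was possible because each group held 1 library, so leaving out a replicate was not run either. Depth limits CDKN2C and CDKN1C most, with at least 2 and 9 reads in their lower library.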

Other observations

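The other BCL2 family genes, the setting in which BBC3 acts, were mixed in S-CAFs-w13: of 10 measured genes, 1 was at least 2-fold higher and 0 lower, beside 9.08% and 7.92% of all genes, with a median log2 ratio of 0.21. The higher gene was BMF, a BH3-only gene like BBC3, at 0.724 and 2.48 FPKM, 3.43-fold higher (2.17 to 5.59). The survival genes MCL1 (55.5 and 89.8 FPKM) and BCL2L1 (61.5 and 102.6 FPKM) stood higher by less than 2-fold, BCL2L11 stood at 2.84 and 3.84 FPKM, and BID (7.35 and 3.76 FPKM) and BAD (11.7 and 6.31 FPKM) stood lower by less than 2-fold on the log2(FPKM + 1) scale. In the knockdown, 0 of 9 measured members were at least 2-fold different.

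TOB1 and TOB2, the antiproliferative relatives of BTG1 and BTG2, stood at 20.5 and 39.1 FPKM and at 17.5 and 25.7 FPKM, both under 2-fold, while BTG3 stood at 13.6 and 13.8 FPKM.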
